A study of Mus musculus with 32 samples.

Results

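The genes described here are 35 structural genes of epithelial cells, chosen by symbol as a measure of epithelial RNA in macrophage libraries of the mouse gut. They comprise 3 adhesion molecules, 5 keratins, 7 claudins, 8 other tight junction genes, 2 microvillus scaffold genes, 5 desmosome genes and 5 other genes of epithelial cells. Symbols of all 35 were found among 24411 genes in the table of the CD11c-DTR transfer and among 24421 in that of the CX3CR1-DTR transfer. All 35 passed the filter on low counts, which kept 11842 genes.

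The libraries come from mice on a C57BL/6J background. Ly6C+ monocytes of Cx3cr1 GFP/+ donors were transferred into BM chimeras whose CD11c+ cells carry the diphtheria toxin (DTx) receptor (the transgene Tg[Itgax-DTR/GFP]57Lan, under the CD11c promoter, bred on B6.FVB and C57BL/6J) in a wild-type host. Recipients received DTx at 18 ng/g before the transfer and at 9 ng/g after it, so that depletion is shared by every engrafted group, and non-hematopoietic cells of the host, the epithelium included, were left in place. Engrafted macrophages (DAPI-CD45+CD11b+CD64+Ly6C-MHCII+ per the labels, with CD45.1 and GFP marking the cells of the donor) were sorted from colon on day 4 (3 libraries), day 8 (3) and day 12 (4) and from ileum on days 4, 8 and 12 (4 each), after a wash with EDTA and DTT meant to remove the epithelium. The monocyte graft (3 libraries, no DTx), CD115+ cells of the donors, is the reference. Its organ is given as blood in the labels and as BM in the description of the sort. A second transfer, into Cx3cr1-DTR chimeras under the same DTx doses, gave 6 libraries of colonic macrophages of day 14, which is taken from the description of the samples since the labels give no day. Ages at the sort, and whether animals were pooled, are not given in the labels, and p-values measure the spread between libraries.

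Keratins form the intermediate filaments of epithelial cells and are anchored at desmosomes. Tight junctions seal the space between neighbouring cells, with claudins setting which ions pass, occludin and tricellulin as further membrane proteins, and ZO proteins and cingulin as the plaque beneath them. E-cadherin and EpCAM hold neighbouring cells together, and villin and ezrin shape the microvilli of the absorptive surface. Cells of hematopoietic origin make little of most of these proteins, ezrin being an exception, whereas all of them are made by the intestinal epithelium that lies next to the lamina propria macrophages.

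The start of each gene, as the count tables give it, served to read the 250 bases before it in mm9, with no exon of the GENCODE annotation inside any window printed here. The shares below use all 35 windows. Many of these windows hold exons of that annotation, and most of the 35 starts are not listed in it. Both hold for Cdh1, Krt19 and Cldn7, for example. The windows of all genes were not checked in this way. CACCTG, an E-box of the kind that ZEB and SNAIL repressors of E-cadherin are known to bind, was present on either strand in 19 of the 35 windows (54.3%), against 17.0% of the windows of 24343 genes. GGGCGG, the GC box, was present in 23 of 35 (65.7%) against 41.3%, and TATAAA in 5 of 35 (14.3%) against 12.05%. CAAAGTCCA, an element of HNF4, and AACCGGTT, an element of Grainyhead-like factors, were in none of the 35 windows, against 0.419% and 0.123% of all. The median GC content was 60.8% for the members and 54.8% for all windows, and no match says that a site is bound. The windows below are those of EpCAM, of the keratin pair Krt8 and Krt18 that lie next to each other on chromosome 15, of Lgals4, which had the most reads of the 35 in colon on average, and of Cldn8 and Oit1, which differed most between colon and ileum on day 8. They are printed 5′ to 3′ on the strand of the gene, and capitals mark CACCTG or GGGCGG on either strand.
Epcam (chr17:88035069-88035318, plus strand): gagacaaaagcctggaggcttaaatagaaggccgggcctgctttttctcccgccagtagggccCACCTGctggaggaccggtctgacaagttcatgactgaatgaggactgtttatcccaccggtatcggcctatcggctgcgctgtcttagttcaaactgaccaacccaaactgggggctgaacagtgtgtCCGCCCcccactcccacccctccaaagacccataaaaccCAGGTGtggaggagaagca
Krt8 (chr15:101834774-101835023, minus strand): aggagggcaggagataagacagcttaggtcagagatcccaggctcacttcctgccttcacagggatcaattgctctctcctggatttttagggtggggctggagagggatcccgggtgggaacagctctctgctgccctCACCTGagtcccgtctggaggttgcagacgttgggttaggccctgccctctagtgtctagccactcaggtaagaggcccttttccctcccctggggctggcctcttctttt
Krt18 (chr15:101858397-101858646, plus strand): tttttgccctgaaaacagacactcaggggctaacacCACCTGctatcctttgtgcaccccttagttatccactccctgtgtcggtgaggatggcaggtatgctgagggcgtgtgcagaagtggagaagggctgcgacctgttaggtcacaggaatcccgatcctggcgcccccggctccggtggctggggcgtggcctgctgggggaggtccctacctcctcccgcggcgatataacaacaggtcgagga
Lgals4 (chr7:29618563-29618812, plus strand): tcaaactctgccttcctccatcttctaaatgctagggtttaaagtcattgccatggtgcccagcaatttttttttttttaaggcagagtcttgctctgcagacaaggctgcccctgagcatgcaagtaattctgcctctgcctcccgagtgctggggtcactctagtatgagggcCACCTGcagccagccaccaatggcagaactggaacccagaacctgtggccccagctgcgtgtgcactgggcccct
Cldn8 (chr16:88563429-88563678, minus strand): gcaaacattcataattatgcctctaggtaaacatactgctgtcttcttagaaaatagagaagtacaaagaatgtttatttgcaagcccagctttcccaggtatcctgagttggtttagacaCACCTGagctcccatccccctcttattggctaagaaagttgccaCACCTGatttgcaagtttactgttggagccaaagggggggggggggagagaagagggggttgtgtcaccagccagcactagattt
Oit1 (chr14:9211278-9211527, minus strand): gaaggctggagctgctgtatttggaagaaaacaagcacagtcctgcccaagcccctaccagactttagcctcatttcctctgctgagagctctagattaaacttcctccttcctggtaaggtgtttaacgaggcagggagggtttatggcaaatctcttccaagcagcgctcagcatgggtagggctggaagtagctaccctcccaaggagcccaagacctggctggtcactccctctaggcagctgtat

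In the windows printed, CACCTG began 187 and 19 bases before the start of Epcam, 111 before Krt8, 214 before Krt18, 75 before Lgals4, and 129 and 85 before Cldn8. The single GC box among them lay 58 bases before the start of Epcam. The window of Oit1 held neither motif. These matches are a description of the letters only.

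Depth was 591817 to 5228664 reads counted on genes in the libraries of the CD11c-DTR transfer and graft and 1223772 to 4218027 in those of the CX3CR1-DTR transfer. Normalized reads are counts per 10000000 reads counted on genes, and summed levels are counts of a list per 10000 of these reads. A single read is worth 1.91 to 16.9 normalized reads, and 3 counts were taken as the floor of a gene in a library, which covers counting error only. Of the 51 pairs of libraries within a group, none agreed within sampling noise (smallest chi-square per degree of freedom 4.73). A 4th colon day 8 library (replicate 1, experiment 1) is not among the 3 that the study states for this group and was kept out of the tests. In 2 libraries of ileum day 4, replicates 2 and 3, both of experiment 1, markers of colonic absorptive cells (Car1, Car4, Aqp8, Slc26a3 and B4galnt2) summed to 45.6 and 45.0 per 10000 reads, against 1.89 to 6.42 in the other 10 ileal libraries and 13.4 to 36.0 in colon. Their small intestinal absorptive list (Fabp6, Apoa1 and others) summed to 7.97 and 7.57, against 13.2 to 67.8 in the other ileal libraries and 2.28 to 12.5 in colon. These libraries go against their label in this respect, so the counts of ileum day 4 and most ranges over ileum are given with and without them.

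Summed over the 35 genes, the graft was at 1.88, 1.86 and 1.93 per 10000 reads on genes. Colonic libraries were at 346, 364 and 356 on day 4, at 348, 347 and 347 on day 8 and at 309, 255, 305 and 311 on day 12. Ileal libraries were at 84.2, 321, 298 and 94.8 on day 4, at 66.4, 71.0, 116 and 70.7 on day 8 and at 42.1, 105, 113 and 81.6 on day 12. Thus between 2.55 and 3.64% of all reads on genes of a colonic macrophage library fell on these 35 epithelial genes, against 0.0186 to 0.0193% in the graft, and the ileal libraries other than replicates 2 and 3 of day 4 lay between, at 0.421 to 1.16%. The CX3CR1-DTR colon libraries ranged from 296 to 373 with a median of 361, overlapping the colon of CD11c-DTR recipients. The colon day 8 library left out stood at 165, below every other colonic library and above the 10 ileal libraries that are not of experiment 1 on day 4.

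The plot of summed levels sets this against genes of leukocytes. The pan-leukocyte list (10 genes, among them Ptprc, Coro1a and Laptm5) summed to 124 to 137 in the graft, 2.89 to 11.8 in colon, 8.23 to 55.5 in ileum and 2.37 to 7.09 in CX3CR1-DTR colon. The lowest ileal value is 9.36 without replicates 2 and 3 of day 4. The macrophage list (13 genes, among them Csf1r, Cd68 and C1qa) summed to 96.4 to 127 in the graft, 8.78 to 50.9 in colon, 22.6 to 229.8 in ileum and 13.8 to 28.0 in CX3CR1-DTR colon, with a lowest ileal value of 38.7 without those replicates. The 7 genes of sort markers were Ptprc, Itgam, Csf1r, Fcgr1, Ly6c2, H2-Ab1 and Cx3cr1, although engrafted cells were sorted to lack Ly6C. None of these was at 0 in the 10 colonic libraries, where they summed to 5.26 to 38.3. In ileum only Ly6c2 was at 0 in any library. None of the pan-leukocyte genes was at 0 in any library of colon or ileum. The 35 epithelial genes had 21.6 to 119.6 reads for each read of the pan-leukocyte list in colon and 0.759 to 7.55 in the 10 ileal libraries without replicates 2 and 3 of day 4, whose ratios were 39.0 and 15.2. Which cells made these transcripts, the engrafted cells included, was not tested. If epithelial cells made them, a larger number of these cells and more RNA per cell cannot be told apart in bulk libraries.

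**Figure D1:**
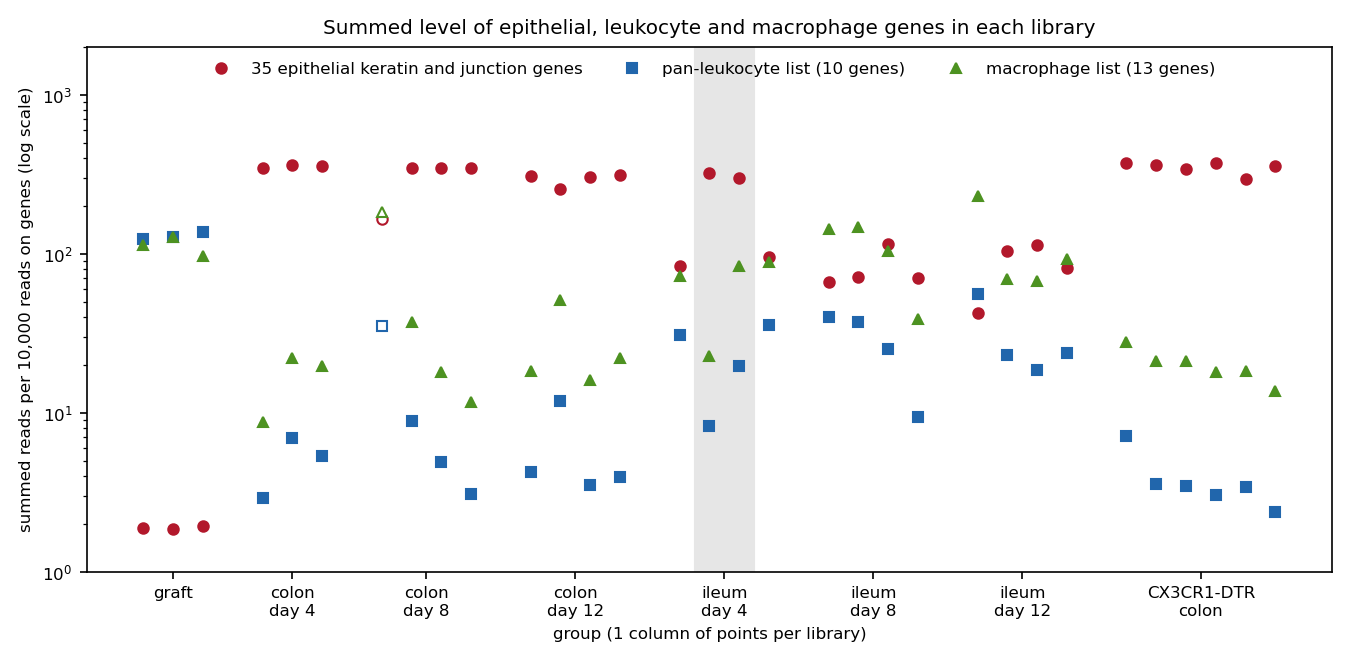
Summed reads per 10000 reads on genes (log axis) for the 35 epithelial genes, the pan-leukocyte list and the macrophage list, 1 column of points for each of the 32 libraries; open symbols mark colon day 8 replicate 1, and the shaded columns are ileum day 4 replicates 2 and 3. The epithelial genes sit near 1.9 in the graft and between 255 and 364 in the 10 colonic libraries tested, where the pan-leukocyte list is between 2.89 and 11.8.

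Graft monocytes were set against engrafted cells to ask which of the 35 genes were higher after engraftment. Of the 35, 24 were at the floor in all 3 graft libraries. Against the graft, all 35 were higher in colon on day 4, where 35.9% of all 11842 genes were higher by edgeR's quasi-likelihood test with Benjamini-Hochberg adjustment (adjusted p under 0.05). The same held for all 35 on day 8 (35.2% of all genes) and on day 12 (37.7%). In ileum, 35 were higher on day 4 (36.2% of all genes), 33 on day 8 (34.3%) and 34 on day 12 (35.9%), and without replicates 2 and 3 of ileum day 4 the first of these counts was 34 (32.3% of all genes). None of the 35 was lower in any of these comparisons, where 24.5, 23.9 and 24.9% of all genes were lower in colon and 20.5, 19.5 and 20.0% in ileum on days 4, 8 and 12 (16.9% on day 4 without those replicates). The median log2 fold change of the 35, with genes at the floor in the graft set to their lower bound, was 7.05, 7.36 and 6.84 in colon and 6.86, 5.30 and 5.29 in ileum on days 4, 8 and 12 (6.05 on day 4 without replicates 2 and 3), whereas the median of all genes was 0.20 to 0.24. All these comparisons share the 3 graft libraries.

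EpCAM, a homotypic adhesion molecule of epithelial cells, was at 0, 0 and 3.52 normalized reads in the graft. In colon it was at 10929, 10456 and 13486 on day 4, 10179, 11676 and 10823 on day 8 and 11219, 7823, 8763 and 8188 on day 12. In ileum it was at 3977, 10154, 11456 and 3799 on day 4, 2627, 3935, 5491 and 3435 on day 8 and 1734, 5049, 3654 and 3273 on day 12. Every engrafted library was far above the graft, with a mean at least 1123-fold higher on day 4 in colon and at least 331-fold higher on day 12 in ileum, taken against the mean floor of 3 counts per graft library. E-cadherin (Cdh1), the cadherin of adherens junctions, was at 12.3, 5.50 and 0 in the graft and at 2597 to 5265 in the 10 colonic libraries.

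Krt19 and Krt8, keratins of simple epithelia, took most of the keratin reads. Krt19 was at 4.09, 10.99 and 10.6 in the graft. In colon it was at 57285, 64434 and 61368 on day 4, 61743, 52548 and 55022 on day 8 and 47359, 40907, 58165 and 49394 on day 12. In ileum it was at 13038, 53031, 40891 and 15815 on day 4, 11264, 10235, 19095 and 10796 on day 8 and 7283, 15600.1, 22113 and 15772 on day 12. Ileum day 4 replicates 2 and 3 were within the range of colon for this gene or just below it, and the other ileal libraries were all below the lowest colonic library. Krt18, the partner of Krt8, was at 7069 to 10058 in the 10 colonic libraries, whereas Krt7, which also marks duct and bladder epithelium, was at 1286 to 2008 and Krt20, a keratin of mature enterocytes, at 2948 to 8106.

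Cldn7, a claudin of the lateral membrane as well as the tight junction, was at 4.09, 0 and 0 normalized reads in the graft. In colon it was at 19044, 22603 and 30966 on day 4, 15564, 17339.8 and 17423 on day 8 and 17852, 15403, 21132 and 19554 on day 12. In ileum it was at 6446, 16568, 30482 and 6008 on day 4, 4514, 11055, 11266 and 7002 on day 8 and 3625, 8439.8, 9796 and 7061 on day 12. Ileum day 4 replicates 2 and 3 were within the range of colon, and the other ileal libraries were all below it. Of the other claudins, the barrier claudin Cldn3 reached 8905 in colon, whereas Cldn2 and Cldn15, which form pores for cations, reached 994 and 2018, and Cldn4, Cldn8 and Cldn23 reached 160.3, 1934 and 836.

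A few of the 35 genes had reads in the graft as well. Ezrin (Ezr), which links membrane and actin and is also made by leukocytes, was at 1119, 984 and 1102 normalized reads in the graft and rose by 2.72 ± 0.36 (log2, SE) in colon on day 4 (adjusted p = 1.05e-06, edgeR, higher in 3 of 3 libraries). In ileum on day 8 it was at 1599, 1310.1, 1747 and 1289, a difference that did not pass (adjusted p = 0.0913). This value turned on the setting, as 3 of 15 alternatives gave an adjusted p of 0.00214 to 0.0189 for it and the other 12 gave none below 0.05. Pkp3, a desmosomal plakophilin, was at 319, 442 and 369.7 in the graft and at 354, 501, 437 and 266 in ileum on day 8, and it passed against the graft on neither day 8 nor day 12 in ileum. Cldn15 (159, 157 and 148) and Tjp3, which encodes ZO-3 (135, 118 and 162), also had a baseline in the graft and rose by 2.91 ± 0.36 and 4.74 ± 0.41 (log2, SE) in colon on day 4, with adjusted p = 3.89e-07 and 1.46e-09 (edgeR). How much of their reads in engrafted libraries the transferred cells themselves made was not tested.

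**Figure D2:**
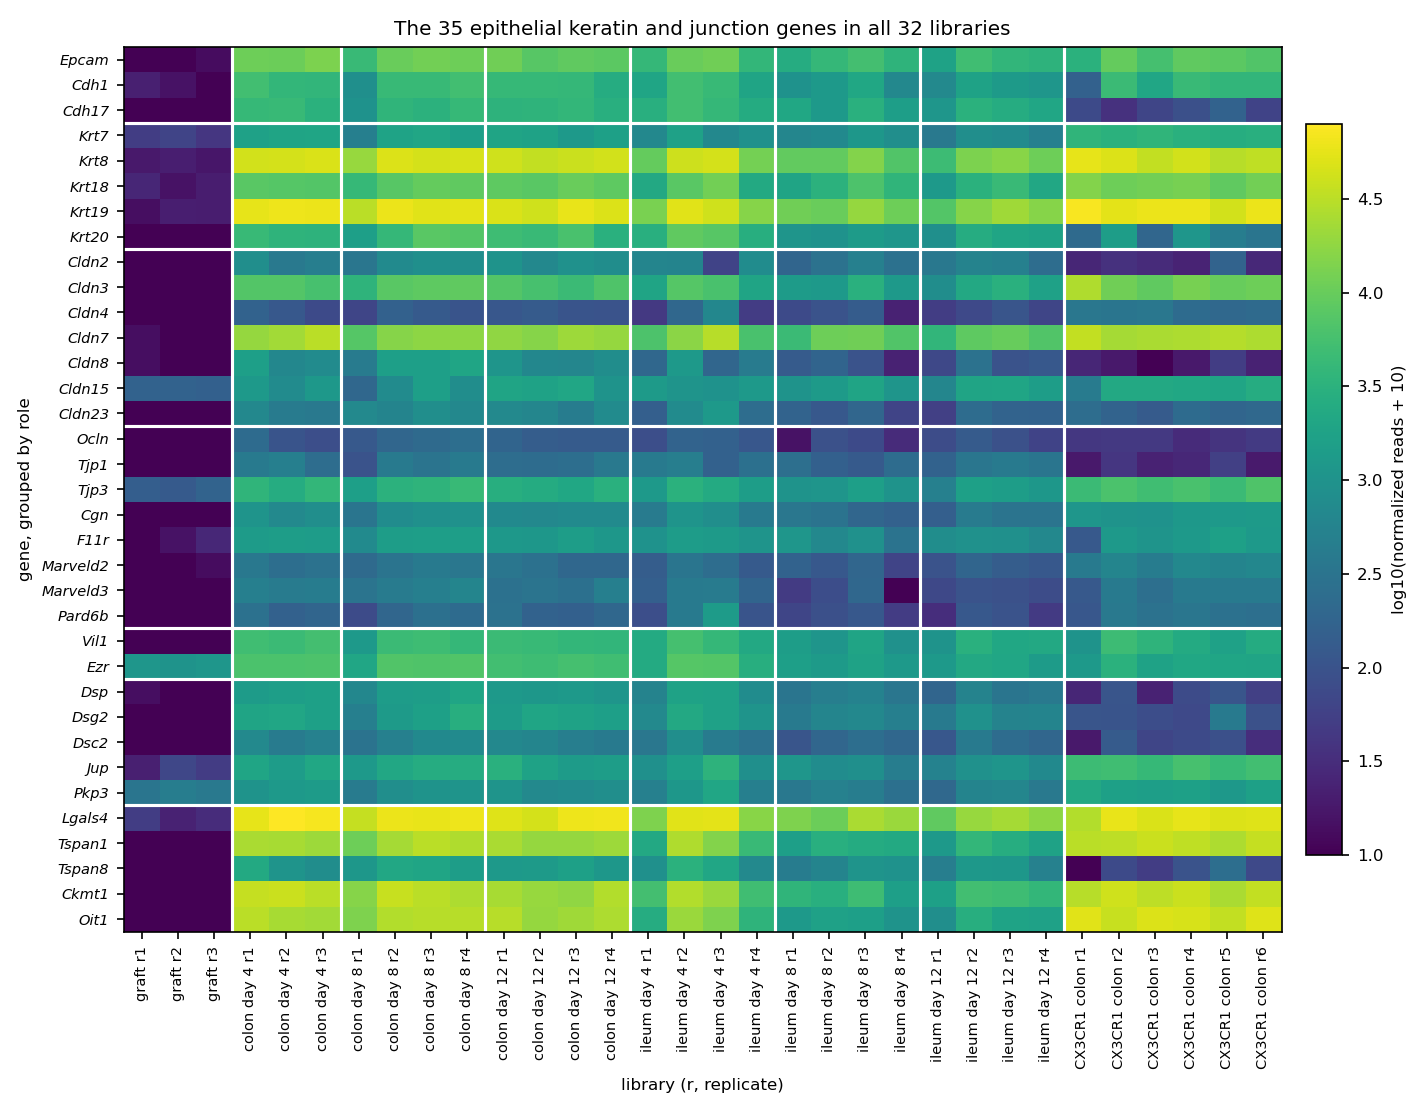
Level of each of the 35 genes (rows, grouped by role) in each of the 32 libraries (columns, grouped by segment and day), as log10(normalized reads + 10). Ezr, Pkp3, Cldn15 and Tjp3 are the rows with the most reads in the graft, ileum day 4 replicates 2 and 3 are at the level of colon for most rows, and Cdh17, Cldn2, Cldn8, Dsp and Tspan8 are darker (lower) in CX3CR1-DTR colon than in the other colonic libraries.

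In colon no change of the 35 genes over time passed the test. None of them, and none of all 11842 genes (0%), passed between days 4 and 8 or between days 8 and 12 with edgeR, and DESeq2 called none of the 35 either. At an unadjusted p under 0.05, 0 of the 35 passed in the first step (1.72% of all genes) and 2 in the second (5.71%, against 2.78% of all genes). The median log2 fold change of the 35 was 0.10 and -0.28 in these steps, against 0.00 and 0.03 for all genes. Per 10000 reads on genes, the summed level on day 12 was 255 to 311 in the 4 libraries. Each of the 6 tested libraries of days 4 and 8 was higher (346 to 364). Colon day 8 replicate 1, left out of the tests, was lower than all of these at 165. Per 10000 mapped reads the days overlapped, with colon day 12 replicate 1 at 211.0 and colon day 4 replicate 2 at 210.5.

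In ileum, 14 of the 35 were lower on day 8 than on day 4, against 4.42% of all genes, and none was higher (0.718% of all genes). They were 1 adhesion molecule, 1 keratin, 2 claudins, 2 other tight junction genes, both microvillus genes, 3 desmosome genes and 3 others, with Oit1, Pard6b and Cldn8 at the largest differences. Without the day 4 libraries of experiment 1 none of the 35 and none of all genes passed, and with the experiment as a block 0 of the 35 passed as well (0% of all genes). Leaving out ileum day 4 replicate 2 alone also left 0, and leaving out replicate 3 left 7. From day 8 to day 12 in ileum none of the 35 passed with edgeR (0% of all genes) or with DESeq2. In this step 0 of the 35 had an unadjusted p under 0.05, against 6.72% of all genes.

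The segments were compared on each day to see how the epithelial genes differ between colonic and ileal macrophage libraries. On day 8, 28 of the 35 were higher in colon and none was lower, against 16.7% of all genes higher and 18.3% lower. On day 12, 26 were higher and none was lower, against 15.3% and 17.2% of all genes. The median log2 fold change, colon over ileum, was 1.71 and 1.40 for the 35 and -0.05 and -0.01 for all genes. The colonic and ileal libraries did not overlap in normalized reads for 33 of the 35 on day 8 (21.2% of all genes) and for 30 on day 12 (16.6%), colon being higher in each. Of the 28 and 26 genes, 24 and 21 passed under every alternative run.

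On day 4 none of the 35 passed between colon and ileum with edgeR, where 0.524% of all genes were higher in colon and 2.66% lower, although 6 had an unadjusted p under 0.05 (17.1%, against 21.8% of all genes) and DESeq2 called 1 higher (2.31% of all genes). For 5 genes, Krt7, Krt19, Lgals4, Ckmt1 and Oit1, the 3 colonic libraries were above all 4 ileal ones (6.06% of all genes), and none was below them (7.41%). Without ileum day 4 replicates 2 and 3, 26 of the 35 were higher in colon, against 12.9% of all genes, and none was lower. With the experiment as a block 12 were higher (4.29% of all genes) and none was lower (6.39%), and without replicate 2 alone 7 were. Against the pair of ileal libraries of experiment 2, the colonic libraries were higher without overlap for 30 of the 35 (21.0% of all genes) and lower for 1, Cldn15 (38.4%).

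By role, all 5 desmosome genes and all 3 adhesion molecules were higher in colon on day 8, as were both microvillus genes (16.7% of all genes were higher). Each of the other roles held a gene that did not pass on day 8, such as Krt18, Cldn4, Tjp1 and Tspan8. EpCAM was higher by 1.43 ± 0.39 on day 8 and 1.40 ± 0.37 on day 12 (log2, SE), with adjusted p = 0.00718 and 0.00613 (edgeR). Cdh1 was higher by 1.86 ± 0.39 on day 8. Cdh17, a cadherin of intestinal epithelium, was higher by 0.84 ± 0.31 only, with adjusted p = 0.0371 (edgeR), and lost the call when any of colon day 8 replicates 2, 3 and 4 or ileum day 8 replicates 1, 2 and 4 was left out (adjusted p = 0.0575 to 0.134) and with all 4 colon day 8 libraries (0.220). Among microvillus genes, Ezr was higher by 2.16 ± 0.32 on day 8 and 1.59 ± 0.30 on day 12, with adjusted p = 1.72e-04 and 7.39e-04 (edgeR), and Vil1, an actin bundler, was at 4484, 4899 and 3969 in colon and 1452, 1065, 1920.4 and 943 in ileum on day 8.

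Plakoglobin (Jup), shared by desmosomes and adherens junctions, was at 2189.8, 2559.9 and 2595 in colon and 1120.4, 778, 867 and 438 in ileum on day 8, a difference of 1.59 ± 0.41 (log2, SE; adjusted p = 0.00491, edgeR). On day 12 it was at 2966, 1765, 1357 and 1498 and 533, 933, 1082 and 704, a difference of 1.22 ± 0.38 with adjusted p = 0.0181 (edgeR). The day 12 call was lost without colon day 12 replicate 1 (adjusted p = 0.0808) and without ileum day 12 replicate 1 or 4 (0.0523 and 0.0506). No colonic library overlapped with an ileal one on either day. Dsp, which ties keratin filaments to the desmosome, was higher by 1.94 ± 0.37 and 1.76 ± 0.35 on days 8 and 12. The desmosomal cadherins Dsg2 and Dsc2 were higher by 1.83 and 1.75 on day 8 and by 1.46 and 1.23 on day 12. Pkp3 was higher by 1.24 ± 0.40 on day 8 (adjusted p = 0.0188, edgeR) and did not pass on day 12 (adjusted p = 0.0568), and its day 8 call was lost without colon day 8 replicate 3 or 4 or ileum day 8 replicate 1 (adjusted p = 0.0532, 0.0600 and 0.0530).

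Of the keratins, Krt19 was higher in colon by 2.08 ± 0.41 on day 8 and 1.71 ± 0.39 on day 12 (log2, SE), with adjusted p = 8.11e-04 and 0.00226 (edgeR), and Krt8 by 2.19 ± 0.44 and 1.83 ± 0.41. Krt20 was higher by 2.44 ± 0.42 on day 8. Krt18 passed on day 12 only, and on day 8 it was at 7785, 9447 and 8842 in colon and 1893, 3184, 6391 and 3554 in ileum, again without overlap. All 5 keratins passed on day 12, where each of the 4 colonic libraries was above each of the 4 ileal ones.

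Claudins differed between the segments to different extents. Cldn8, a barrier claudin of the distal gut, was at 1556, 1609 and 1934 in colon and 119.7, 172, 89.9 and 13.3 in ileum on day 8, higher by 4.04 ± 0.62 (log2, SE; adjusted p = 1.75e-04, edgeR). On day 12 it was higher by 2.55 ± 0.56. Cldn3 and Cldn23 were higher by 2.27 and 2.39 on day 8. The pore claudin Cldn2 was higher by 1.34 ± 0.42 on day 8 and 1.07 ± 0.39 on day 12, and Cldn4 passed on neither day, at 152, 118 and 93.7 in colon and 65.3, 88.7, 128 and 13.3 in ileum on day 8. The call of Cldn2 on day 8 was lost without colon day 8 replicate 3 or 4 or ileum day 8 replicate 1 (adjusted p = 0.0529 to 0.0603). On day 12 it was lost without colon day 12 replicate 1, 3 or 4 or ileum day 12 replicate 1, 3 or 4 (adjusted p = 0.0633 to 0.132). Cldn7 was higher by 1.38 ± 0.45 on day 12 (adjusted p = 0.0217, edgeR), a call that was lost without ileum day 12 replicate 1 (adjusted p = 0.0703) or colon day 12 replicate 3 (0.0557), and on day 8 it did not pass (adjusted p = 0.136), except without ileum day 4 replicates 2 and 3 (0.0238) and with library totals in place of TMM (0.0495). Cldn15 passed on no day. It was at 754, 1582 and 796 in colon and 1001, 1336, 1908 and 1063 in ileum on day 8, and at 1858, 1755, 2018 and 985 and 608, 1859, 1925 and 1478 on day 12, so that the segments overlapped. The log2 fold change was -0.40 ± 0.31 on day 8 and 0.19 ± 0.29 on day 12 (SE), with adjusted p = 0.345 and 0.658 (edgeR).

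Of the other tight junction genes, Tjp3 was higher in colon by 1.57 ± 0.32 and 1.13 ± 0.30 on days 8 and 12 (log2, SE), with adjusted p = 0.00106 and 0.00679 (edgeR). Cingulin (Cgn) and Marveld3 were higher by 1.79 and 2.69 on day 8 and 1.29 and 2.12 on day 12. Tricellulin (Marveld2) was higher by 1.41 ± 0.36 and 0.94 ± 0.33, and its day 12 call was lost without colon day 12 replicate 1 or 2 or ileum day 12 replicate 1, 3 or 4 (adjusted p = 0.0633 to 0.105). Occludin (Ocln) and F11r, which encodes JAM-A, passed on day 8 only, by 2.22 and 1.00. Tjp1, which encodes ZO-1 and is also made by endothelium and stroma, and Pard6b, of the PAR polarity complex, passed on neither day. Tjp1 was at 234, 233, 245 and 366 in colon and 158, 334, 387 and 313 in ileum on day 12, with overlap.

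Of the other epithelial genes, Oit1 had the largest difference between the segments. It was at 28724, 29982 and 30038 normalized reads in colon and 1229, 1717, 1580.0 and 1016 in ileum on day 8, higher by 4.36 ± 0.56 (log2, SE; adjusted p = 1.22e-04, edgeR). On day 12 it was higher by 3.79 ± 0.53 (adjusted p = 1.95e-04, edgeR). Tspan1, a tetraspanin, and Ckmt1, the mitochondrial creatine kinase of epithelia, were higher by 3.47 and 3.26 on day 8. Lgals4, the galectin of the gut epithelium, was at 61654, 58954 and 63093 in colon and 14163, 10397, 25807 and 20535 in ileum, higher by 1.71 ± 0.46 (log2, SE; adjusted p = 0.00619, edgeR). Each of these genes was higher in all 3 colonic libraries than in all 4 ileal ones. Tspan8, another tetraspanin, was at 2164, 1925 and 1463 in colon and 419, 558, 1053 and 977 in ileum on day 8. It did not pass on either day in the fit of all 25 libraries.

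**Figure D3:**
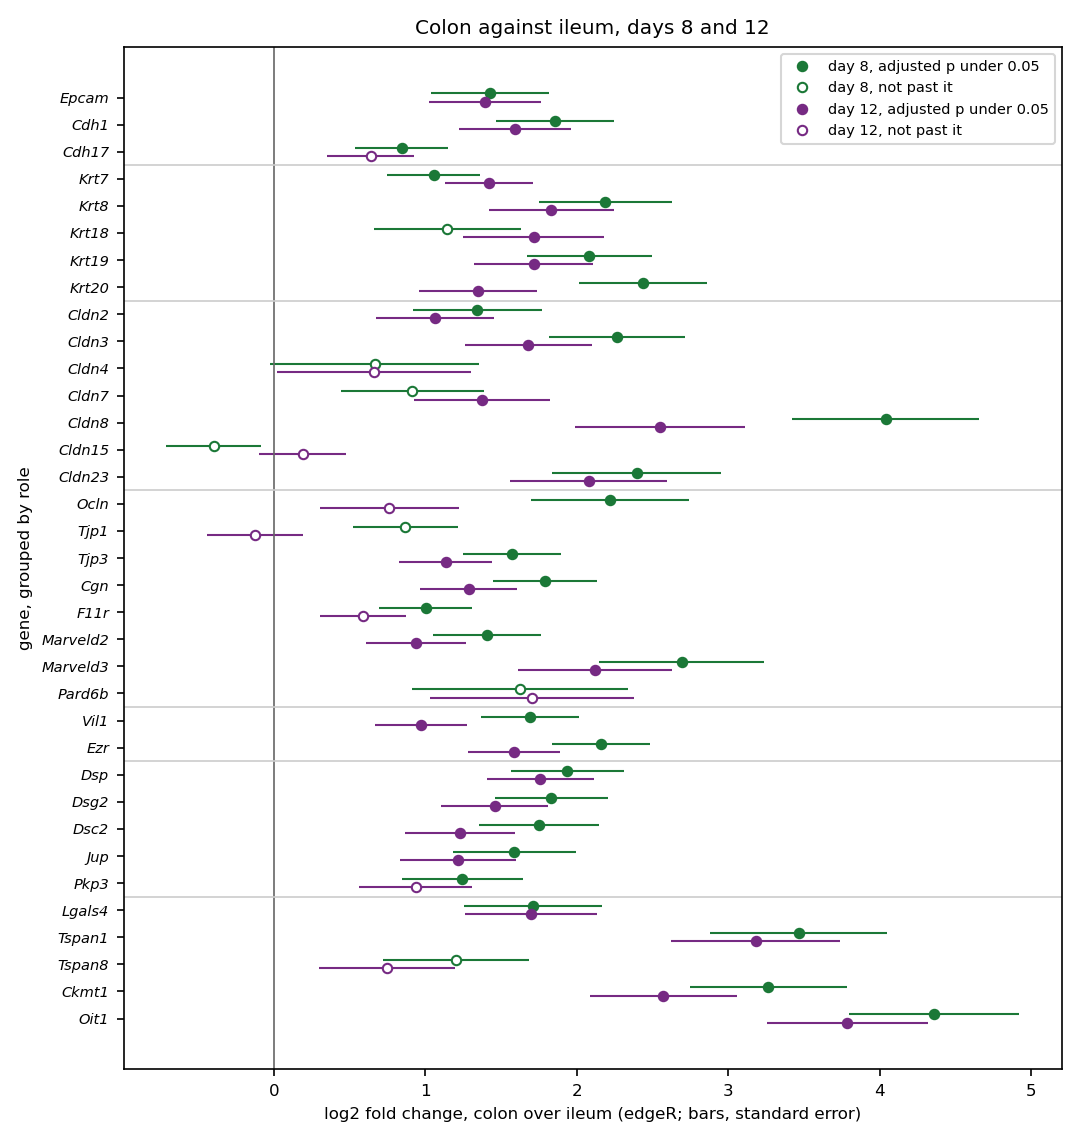
Log2 fold change of colon over ileum for each of the 35 genes on days 8 and 12, with bars for the standard error; filled points passed (adjusted p under 0.05, edgeR) and open points did not. Oit1, Cldn8, Tspan1 and Ckmt1 extend farthest to the right on day 8, and Cldn15 and Tjp1 have a point on either side of 0.

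Leukocyte genes differed between the segments in the other direction. For scale, 16.7% of all 11842 genes were higher in colon and 18.3% lower on day 8, and 15.3% and 17.2% on day 12. Of the 10 pan-leukocyte genes, none was higher and 9 were lower in colon on day 8 (median log2 fold change -2.25), and none was higher and 10 were lower on day 12 (-2.39). Of the 12 macrophage genes tested, 10 and 11 were lower. Other epithelial lists went with the 35 genes. Of 21 further junction and polarity genes tested, 15 were higher in colon on day 8 and 13 on day 12, and none was lower (median log2 fold change 1.26 and 0.92). Of 13 brush border genes 10 and 7 were higher and 1 was lower on each day, and of 6 regulators of the epithelial programme (Grhl, Esrp, Ovol and Elf families) 4 and 6 were higher. Of 11 genes of small intestinal absorptive cells none was higher and 9 and 8 were lower, whereas of 5 genes of colonic absorptive cells 4 and 3 were higher. Of 8 goblet cell genes 5 were higher on either day, of 6 enteroendocrine genes 2 and 3 were, and of 6 Paneth cell genes 5 and 4 were lower. Of 5 crypt base genes and of 4 smooth muscle genes 1 was lower on either day, which is near the share of all genes. Of 6 endothelial genes 5 were lower, of 5 fibroblast genes none passed, and all 3 T cell and both B cell genes tested were lower. No gene of the tuft cell and mesothelium lists passed the filter on low counts. The part that the share of leukocyte RNA has in the difference of the 35 genes was not tested.

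To describe how the 35 genes differ among themselves apart from their sum, each was taken as a percentage of the reads of all 35 in its library. Reads come from the 3′ end of transcripts and these shares are shares of reads, not levels per length. Lgals4, Krt19, Krt8, Ckmt1, Oit1 and Tspan1 together held 69.9 to 75.8% in the 10 colonic libraries and 52.7 to 69.5% in the ileal ones, or 52.7 to 63.1% in ileum without replicates 2 and 3 of day 4. With replicates 2 and 3 of ileum day 4 set aside, the shares of 31 genes overlapped between the segments. Krt8 held 12.11 to 14.3% in colon and 9.65 to 14.2% in ileum, and Krt19 held 15.2 to 19.10% and 14.4 to 19.5%, so that the main keratins kept close to the same part of the sum while the sum itself differed.

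Shares of 2 genes were higher in ileum without overlap (68.7% of all genes on the same scale), and those of 2 were lower (0.414% of all genes). Cldn15 held 1.32 to 1.88% in ileum and 0.206 to 0.689% in colon, 4.72 times as much by the medians. Cdh17 held 1.79 to 3.41% and 0.869 to 1.37%. Oit1 held 1.36 to 3.62% in ileum and 6.44 to 9.79% in colon, 0.241 times as much, and Tspan1 held 2.13 to 4.61% and 5.89 to 9.05%. In the libraries labelled ileum day 4 replicates 2 and 3 Cldn15 held 0.325 and 0.324%, within the colonic range, and Oit1 held 6.47 and 4.63%, above every other ileal library.

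**Figure D4:**
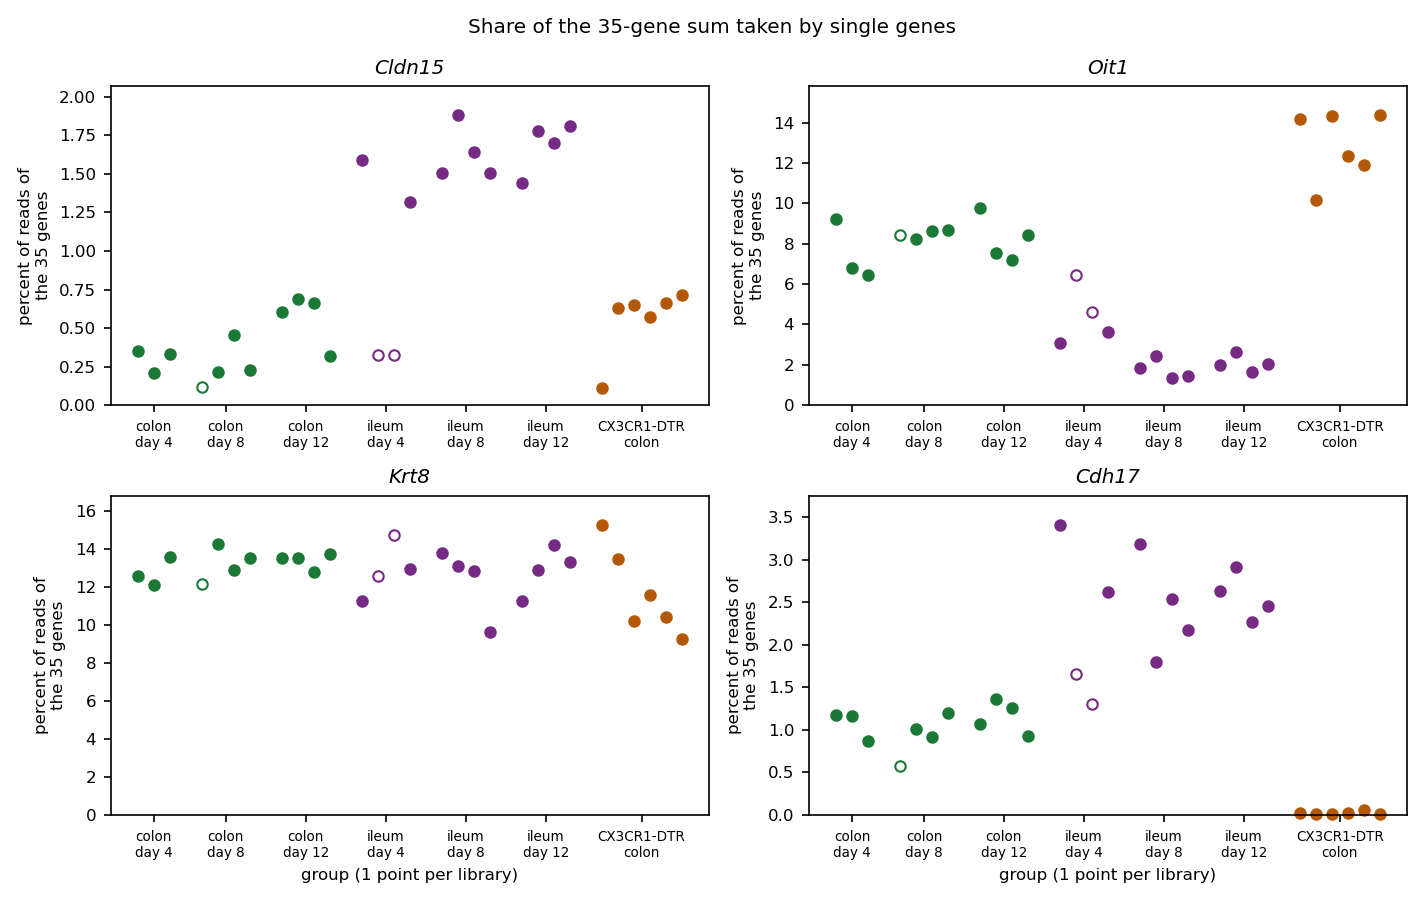
Percentage of the reads of the 35 genes that fell on Cldn15, Oit1, Krt8 and Cdh17 in each engrafted library, by segment and day; open points are colon day 8 replicate 1 and ileum day 4 replicates 2 and 3. Cldn15 and Cdh17 take more in ileum than in colon, Oit1 takes less, Krt8 overlaps, and Cdh17 is near 0 in CX3CR1-DTR colon.

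Most of the 35 genes went together across the libraries of colon and ileum taken as a whole. Over the 22 engrafted libraries of CD11c-DTR recipients, the log2 level of Krt8 correlated with the log2 sum of the other 34 members with a Pearson r of 0.99, Krt19 with 0.99 and Cldn3 with 0.98. The lowest were Cldn15 (-0.02), Cldn2 (0.36) and Tjp1 (0.40), whereas the rest were between 0.63 and 0.99. Over the 20 libraries without ileum day 4 replicates 2 and 3, the lowest were Cldn15 (0.03), Tjp1 (0.46) and Cldn4 (0.67), and Cldn2 was at 0.69. These libraries share segments and days, so the values are descriptions. The median SD of a member's log2 level was 0.304 over the 10 colonic libraries and 0.869 over the 12 ileal ones, or 0.567 without replicates 2 and 3 of day 4. Taken as a ratio to the other members it was 0.290, 0.471 and 0.404. The ratio had the smaller SD for 20 of the 35 genes in colon and for 30 in ileum (33 without those replicates). Within colon the genes thus went together less.

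The 10 other genes whose log2 level was most like the summed level of the 35 over these 22 libraries were Prss32 (r = 0.99), Ggt6, Baiap2l1, Atp1b1, Ndrg2, Tstd1, Sytl1, Gss, Bspry and S100a14 (r = 0.98). The means of Prss32 were 0.916 normalized reads in the graft, 11838 in colon and 3587 in ileum. In the graft Gss had the highest mean of the 10, at 263.

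The second depletion model was used to ask whether the epithelial genes recur with other recipients. All 35 were higher in CX3CR1-DTR colon than in the graft, where 39.5% of 11718 genes were. Of these, Cldn8 was at the floor in 5 of the 6 CX3CR1-DTR libraries, Tjp1 in 3 and Cldn2 and Dsp in 2 each, and the mean of Cldn8 was at least 1.41-fold higher than in the graft. Against colon day 12 of CD11c-DTR recipients, 12 were higher (25.2% of all genes) and 12 were lower (35.4%), and the median log2 fold change of the 35 was -0.03, against -0.11 for all genes. In this comparison 68.6% of the 35 and 64.4% of all genes had an unadjusted p under 0.05. The share of the 35 that differed was thus near that of all genes. The groups differ in recipients, day, transfer experiment and count table, which cannot be told apart. Titles of the 6 CX3CR1-DTR libraries also read GFP only, which does not say whether their sort differed. Transcripts chosen for Tjp1, Pkp3 and Tspan8 differ between the tables, so their values are uncertain here.

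Of the 6 genes with the most reads in colon, Krt8, Lgals4 and Krt19 did not pass against colon day 12, and Oit1, Tspan1 and Ckmt1 were higher. Krt8 was at 30768 (lowest), 39129.9 (median) and 57069.5 (highest) normalized reads over the 6 libraries and at 41763, 34517, 39015 and 42879 in colon day 12. Lgals4 was at 28600.1 (lowest), 50097 (median) and 58702 (highest) and Krt19 at 43511 (lowest), 60964 (median) and 72906 (highest). Oit1 was at 35213 (lowest), 47609 (median) and 52926 (highest) and higher by 0.88 ± 0.20 (log2, SE; adjusted p = 0.00224, edgeR). Jup was higher by 1.35 ± 0.28 (adjusted p = 6.78e-04, edgeR) and Tjp3 by 1.08 ± 0.17 (adjusted p = 7.79e-05, edgeR), in 6 of 6 libraries each. The others that were higher were Cldn4 (1.38), Marveld2 (1.14), Cldn3 (1.13), Krt7 (0.90), Cgn (0.66) and Tspan1 (0.61), with Pkp3, and with Cldn7 and Ckmt1, whose calls were lost under 6 and 4 of the alternatives that leave out 1 library.

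Lower genes showed larger differences. Cldn8 was at 0 (lowest), 11.2 (median) and 40.3 (highest) in CX3CR1-DTR colon and at 1071, 634, 604 and 815 in colon day 12, a log2 fold change of -5.52 ± 0.45 (SE; adjusted p = 1.61e-07, edgeR, lower in 6 of 6 libraries), whose size is uncertain since Cldn8 was at the floor in 5 of the 6. Cdh17 was at 26.4 (lowest), 59.9 (median) and 159 (highest) against 3286, 3483, 3836 and 2881, a log2 fold change of -5.48 ± 0.38 (adjusted p = 1.57e-07, edgeR). Desmoplakin (Dsp) was at 13.6 (lowest), 56.9 (median) and 97.2 (highest) against 1262, 1147, 1288 and 1061. Its log2 fold change was -4.31 ± 0.38, and the desmosomal cadherins Dsg2 and Dsc2 were at -3.63 and -3.09. Cldn2 (-4.11), Krt20 (-2.92), Ocln (-2.18), Cldn23 (-1.74) and Ezr (-1.41 ± 0.19, adjusted p = 1.93e-05, edgeR) were lower too, as were Tjp1 and Tspan8 with the transcripts noted. All 12 lower calls and 10 of the 12 higher calls passed under every alternative run.

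As shares of the sum, 6 genes were higher in CX3CR1-DTR colon than in all 10 colonic libraries (11.5% of all genes), 13 were lower (28.0%) and 16 overlapped. Of the desmosome genes, Jup held 1.18 to 1.56% against 0.387 to 0.960%, and Dsp held 0.00397 to 0.0329% against 0.341 to 0.564%. Jup and Dsp thus differed in opposite directions, although Jup is shared with adherens junctions. Of the other lists, 5 further junction and polarity genes were higher and 9 lower of 21 tested, 6 brush border genes were higher and 2 lower of 12, and 4 pan-leukocyte genes of 10 were lower and none higher. Of all 11718 genes, 25.2% were higher and 35.4% lower than in colon day 12.

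**Figure D5:**
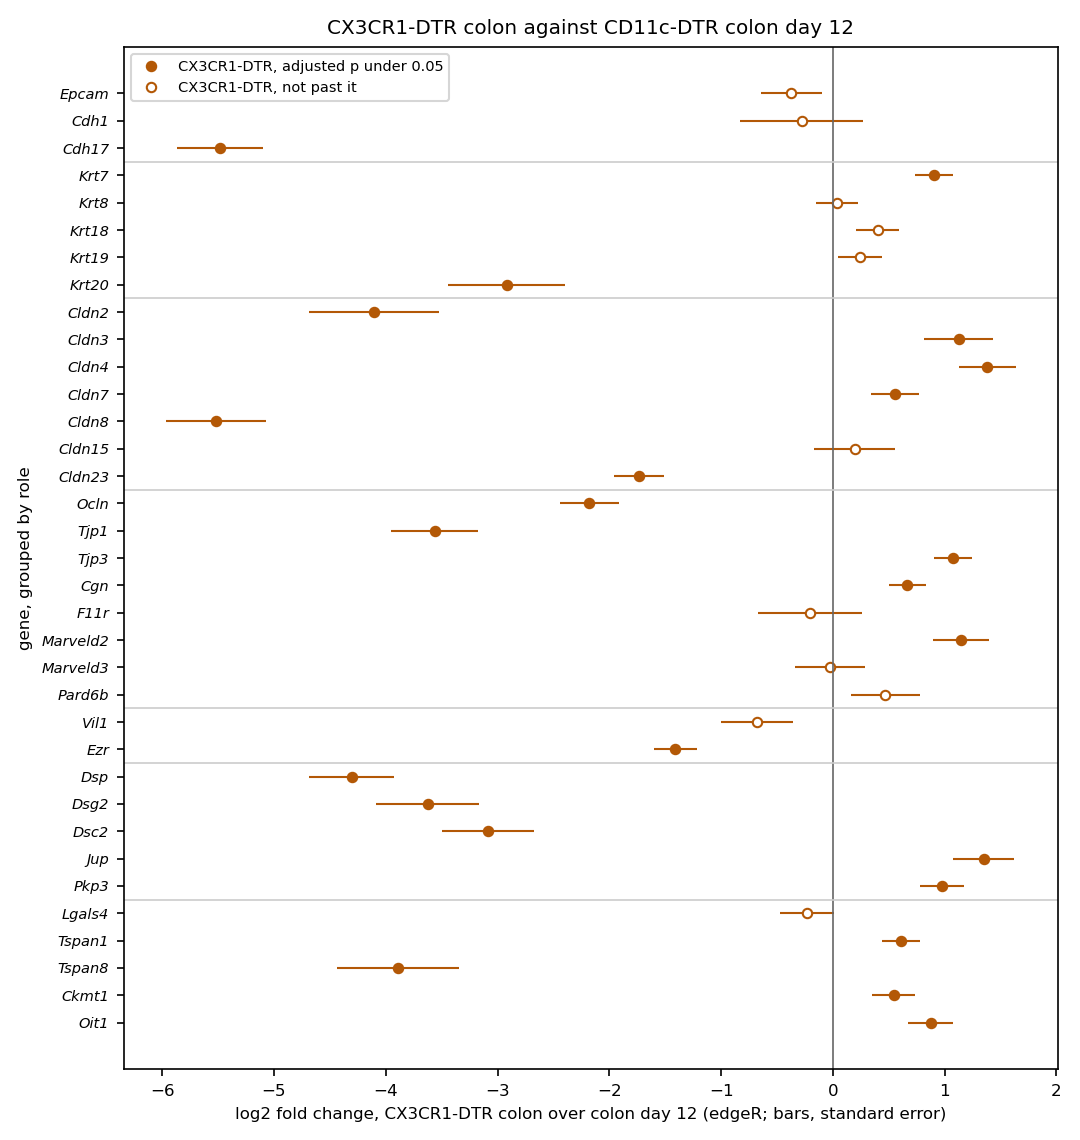
Log2 fold change of CX3CR1-DTR colon over CD11c-DTR colon day 12 for each of the 35 genes, with bars for the standard error; filled points passed (adjusted p under 0.05, edgeR). The 12 lower genes reach -5.52 (Cldn8, at the floor in 5 of 6 libraries), whereas the 12 higher genes stay at or below 1.38 (Cldn4).

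Replicate 1 of CX3CR1-DTR colon stood apart from the other 5 libraries. Cdh1 was at 155 normalized reads in it and at 2057 to 4489 in the others, F11r was at 114 and at 1029 to 1655, and Cldn15 was at 409 and at 1965 to 2553. Cldn3 was at 26868 and at 8931 to 12590. The sum of the 35 genes was 373 per 10000 reads in this library and 296 to 372 in the others. Without it, 14 of the 35 were higher and 12 lower than in colon day 12, against 31.0% and 37.4% of all genes. These genes were picked after their values were seen.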

How the data were processed

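The authors aligned MARS-seq reads, which come from the 3′ end of transcripts, to mm9 with HISAT 0.1.6 and deposited raw counts of reads on exons per gene, on the sense strand and for 1 transcript per gene, made with HOMER. These counts were used as deposited. 52 columns that match no sample were not used. A gene was kept with at least 50 reads per 10000000 mapped reads in 3 libraries. 25 libraries in 7 groups were fitted jointly in edgeR 4.0.16 (R 4.3.3; TMM, quasi-likelihood test, Benjamini-Hochberg adjustment over 11842 genes, threshold 0.05), and a second fit joined the graft, colon day 12 and CX3CR1-DTR colon over 11718 of 24148 shared symbols, filtered per 10000000 reads counted on genes. DESeq2 1.42.0, other scaling, other filters, only the groups compared, the experiment as a block and leaving out each library were the alternatives. Colon day 8 replicate 1 was left out because the study states 3 libraries for this group, and all 6 CX3CR1-DTR libraries were used, although the study describes fewer repeats for this group. Members and lists were chosen with earlier results of these data known. All 35 members are described, with full statistics for those with the most reads in each role class and for those whose direction differs between comparisons, and the other genes named are list members and the 10 most like the summed level. Replicate numbers follow the order of deposit and pair nothing, so the block was the experiment given by dates in the labels. The date of ileum day 8 replicate 2 carries another year than the dates that share its day and month, and it was placed with those libraries. Depth was 591817 to 5228664 reads on genes, so that 3 counts stand for 5.74 to 50.7 normalized reads.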

Additional observations from a re-analysis of the deposited data

Results flagged for a closer look

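Over 215 checks of single libraries against the others of their group, 16 stood apart by Dixon's test at the 95% level. Chance alone would give about 1 in 20 of the 215 checks, so many of the 16 may be due to chance. Colon day 12 replicate 2 had the lowest sum of the 35 genes in its group (255 per 10000 reads, against 305 to 311 in the other 3 libraries) and the lowest sum of the claudins (24.97 against 29.7 to 29.8). Ileum day 8 replicate 3 had the highest sum of the 35 (116 against 66.4 to 71.0), and its keratins summed to 42.9 against 23.14 to 24.37. In the same library Krt19 was at 19095 normalized reads against 10235 to 11264, Cldn3 at 2948 against 1237 to 1354 and Tjp3 at 1580.0 against 997 to 1086.

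In colon on day 12, replicate 4 had Cdh1 at 2597 normalized reads, against 3903 to 4102 in the others, and Tjp1 at 366 against 233 to 245. Replicate 3 had F11r at 1483 against 1147 to 1174.

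In CX3CR1-DTR colon, replicate 1 had claudins summing to 63.1 per 10000 reads against 37.3 to 41.7, with Cldn3 at 26868 normalized reads against 8931 to 12589.8 and Cldn15 at 409 against 1965 to 2553. Replicate 5 had Cldn2 at 164 against 14.2 to 26.4, Dsg2 at 384 against 62.7 to 98.1 and Tspan8 at 247 against 0 to 88.3, genes that were low in this group.

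Colon day 8 replicate 1, which entered only the alternative with all 4 colon day 8 libraries, had the 35 genes at 165 per 10000 reads, against 1.86 to 1.93 in the graft. Its pan-leukocyte list was at 34.9 and its macrophage list at 184, both above the other colonic libraries of CD11c-DTR recipients.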

How the results depend on the processing

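Against the graft, between colon and ileum on days 8 and 12 and between the depletion models, the counts of genes that passed stayed within 1.5 times under every alternative run. The fall from day 4 to day 8 in ileum was lost: 14 genes became 0 with only the groups compared, 0 without the ileum day 4 libraries of experiment 1, 0 with the experiment as a block, and 0 to 24 when 1 library was left out. Colon against ileum on day 4 went from 0 to 1 with DESeq2, 26 without those libraries, 12 with the block, and 0 to 7 when 1 library was left out. The block moved no other count by over 1.5 times. Same-experiment libraries of different groups deviated together little (median r 0.0310 over 74 pairs, 0.00782 over 127 other pairs). With library totals in place of TMM, Pkp3 changed sign in ileum against the graft, at -0.28 on day 8 and -0.12 on day 12 (log2), without passing, and the median of all genes in colon day 4 against the graft moved from 0.21 to -0.12. Per 10000 mapped reads the summed level was 1.31 in the graft, 217, 222 and 177 in colon and 43.9 and 47.2 in ileum on days 8 and 12. Without Lgals4 it was 286, 286 and 239 in colon and 302 in CX3CR1-DTR colon, and with all 4 colon day 8 libraries 302. Single genes were followed under alternatives where they were called between segments or depletion models, or were picked to be named. Of their values, 1308 kept direction and side of the threshold, 42 no longer passed, 5 newly passed and 2 changed sign. Members outside this set that newly passed are not in these counts. Differences in genes near 3 counts were not detectable at this depth.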
